A study of Arabidopsis thaliana with 16 samples.

Results

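Wild-type Arabidopsis thaliana seedlings (ecotype Col) that were already under hydrogen peroxide (H2O2) received the brassinosteroid epi-brassinolide (BL) or its ethanol solvent, and the effect of BL was read within each H2O2 dose. The members are the arrays labelled with H2O2 at 1, 5, 25, 50 or 100 mM, 10 of the 16 arrays of the study. At each of the 5 doses there was 1 array of seedlings given 1 µM BL and 1 array of seedlings given solvent, so the dose makes 5 pairs of BL and solvent. All 10 arrays held RNA of whole seedlings aged 12 days, grown in liquid medium with 16 h of light a day. They were put in the dark for 1 h, then pretreated with H2O2 for 30 min and harvested 1 h after BL or solvent was added, still in the dark and with the H2O2 in the medium. The other 6 arrays, 3 with BL and 3 with solvent at 0 mM H2O2, did not enter the paired fit. No dose has a second pair, so the spread of the BL difference is the spread between doses.

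Brassinosteroids are growth-promoting steroid hormones of plants. They bind the receptor kinase BRI1 at the cell surface, which leads to inactivation of the kinase BIN2 and lets the transcription factors BZR1 and BES1 act on genes for cell expansion, while genes of hormone synthesis are turned down by feedback. H2O2 is a reactive oxygen species that acts as a stress and as a signal and raises genes for chaperones, detoxification enzymes and stress transcription factors. The series title names the interaction of both, and the paired comparison asks what BL adds once H2O2 is present.

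The values are log2 signals of Affymetrix probe sets, so a difference of 1 is a 2-fold change. The BL and solvent arrays of one dose had a Pearson correlation of 0.987 to 0.995 over 12732 probe sets, and arrays of different doses one of 0.938 to 0.994. Probe sets are not independent replicates, and these correlations are descriptions. Few markers had a probe set of their own. Root tissue rests on 1 of 3 such root markers, and green tissue on 1 marker. The root glucosidase gene PYK10 read 13.7 on BL arrays and 13.6 on solvent arrays, and RCA, the Rubisco activase gene of green tissue, read 14.6 and 14.7. The other root markers, the root hair genes EXPA7 and EXPA18, stayed next to the lowest value on the arrays. The stomatal factor gene FMA read 5.27 with BL and 5.16 with solvent. The stomatal genes SPCH and MUTE, like EXPA7 and EXPA18, stayed between 2.12 and 2.44. In RNA of whole seedlings, fewer cells of a type and less RNA per cell cannot be told apart.

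BL was not seen to change any gene under H2O2. Of 12732 probe sets, 0 were called at a limma adjusted p under 0.05 (0% called), and the lowest adjusted p was 0.809. An unadjusted p under 0.05 was reached by 769 probe sets (6.04%), 355 higher (2.79%) and 414 lower (3.25%) with BL. A paired linear model without variance moderation called 0 as well, with 674 at an unadjusted p under 0.05. The mean difference, BL minus solvent, had a median of -0.0021 over all probe sets, and its central 95% ran from -0.25 to 0.26. The lowest was -0.94 and the highest 0.81, so 0 probe sets differed 2-fold on average, and 39 had a mean difference of at least 0.5 in size, 13 of them above 0 and 26 below.

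The 5 pairs put close bounds on the mean response of single probe sets over the doses. They do not bound the response at a single dose, which has 1 array a side. The 95% interval of the mean difference had a median half-width of 0.20 on the log2 scale. For 12677 probe sets (99.6%) that interval lay inside a 2-fold change in either direction, and for 12112 (95.1%) inside a 1.5-fold change. These intervals are per probe set and not adjusted for their number, and they cover the spread between these arrays only. The plot of mean difference against mean level shows the spread widest among dim probe sets and narrow among bright ones.

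**Figure D1:**
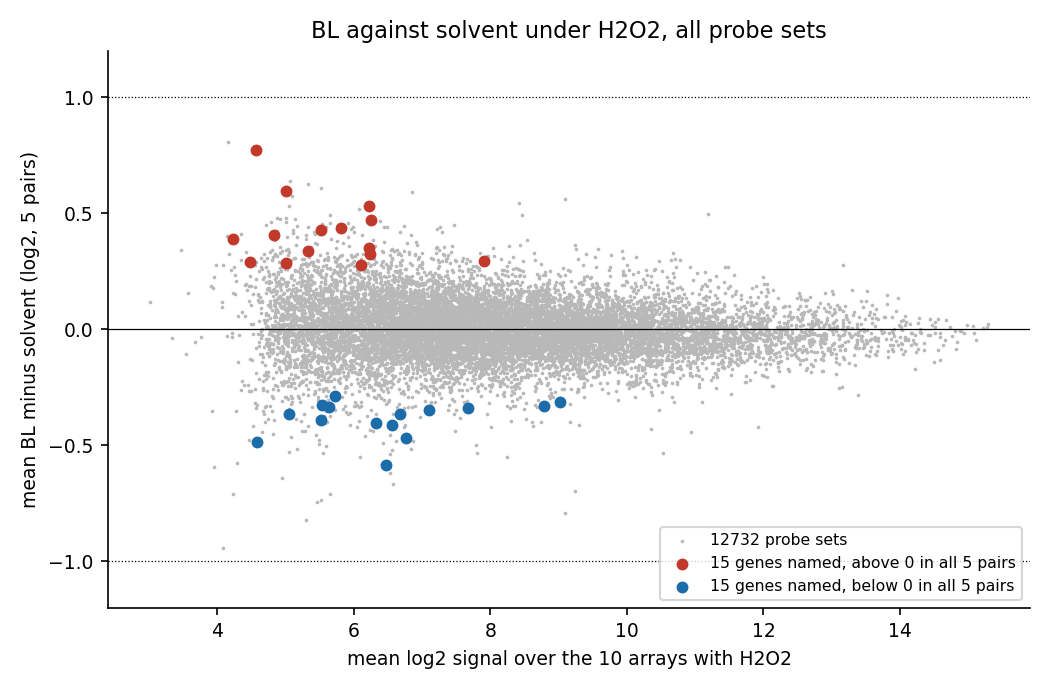
Mean BL minus solvent over the 5 H2O2 pairs (vertical axis, log2) against the mean log2 signal over the 10 arrays (horizontal axis), 1 grey point for each of 12732 probe sets, with the genes named by rule in red and blue and dotted lines at a 2-fold change. No point reaches a dotted line, and the highest and lowest means are 0.81 and -0.94.

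All 5 pair differences had the same sign for 931 probe sets (7.31%), 380 above 0 (2.98%) and 551 below 0 (4.33%). Among genes with a probe set of their own, the 15 with the lowest p in each direction are described by their values, since none was called and each had an adjusted p of 0.811. Their mean differences ran from 0.28 to 0.77 in one direction and from -0.58 to -0.29 in the other. Of these 30 genes, 4 have a gene symbol in the annotation and the others only a locus name, so no role is given for those. Their mean levels lay between 4.23 and 9.01, and were under 6 for 9 of the 15 genes above 0 and for 6 of the 15 below 0.

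AT1G16650 read 6.44, 6.67, 6.42, 6.36 and 6.59 on the BL arrays from 1 to 100 mM, against 5.89, 6.02, 6.19, 5.73 and 6.0 on the solvent arrays. The BL arrays all lay above the solvent arrays, with no overlap. The genes named here were chosen for 5 differences of one sign and a low p. Separated groups and intervals off 0 therefore follow largely from that choice and are no added support. Its mean difference was 0.53 (95% interval 0.34 to 0.72, 5 pairs), a 1.45-fold higher signal. AT2G38370 had a mean difference of 0.47 (0.28 to 0.66), AT3G02400 of 0.60 (0.33 to 0.86) and AT2G42270 of 0.44 (0.23 to 0.64). AT1G64380 had the highest mean difference of the 30, 0.77 (0.36 to 1.18), with pair differences of 1.44, 0.08, 0.77, 0.50 and 1.07 from the lowest to the highest dose. SBT3.5, which encodes a subtilisin-like protease, had a mean difference of 0.32 (0.14 to 0.51), while its level on BL arrays was highest at 1 mM, with 7.71, 6.79, 6.11, 5.69 and 5.71, as it was on solvent arrays, with 7.27, 6.41, 6.02, 5.45 and 5.23. The BL and solvent ranges of SBT3.5 overlap, and the BL array lay above its partner in each pair.

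CCR2 encodes cinnamoyl-CoA reductase, an enzyme on the way to lignin precursors. It read 6.84, 8.63, 8.17, 7.18 and 6.72 on BL arrays and 7.30, 8.96, 8.40, 7.54 and 7.05 on solvent arrays. Each BL array lay below its partner, with differences from -0.46 to -0.23 that were small beside the range over doses, and the mean difference was -0.34 (-0.49 to -0.19). UGT71B6 encodes a glucosyltransferase known to act on abscisic acid. It read 6.35, 5.37, 5.13, 5.12 and 5.36 with BL and 6.71, 5.58, 5.54, 5.36 and 5.82 with solvent, with a mean difference of -0.34 (-0.50 to -0.17). PR-1-LIKE, named after a pathogenesis-related protein, had the lowest mean of the 30, -0.58 (-0.88 to -0.28), with pair differences of -0.96, -0.77, -0.24, -0.15 and -0.80. AT5G46730 had a mean of -0.40 (-0.58 to -0.23) and AT1G56060 of -0.47 (-0.70 to -0.24). At 0 mM the BL difference of the 15 genes above 0 here was above 0 for 5 and below 0 for 10, and of the 15 genes below 0 here it was above 0 for 9 and below 0 for 6. Over all probe sets the median BL difference at 0 mM was 0.07. No share over all probe sets is given for these counts, so nothing is read from them.

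**Figure D2:**
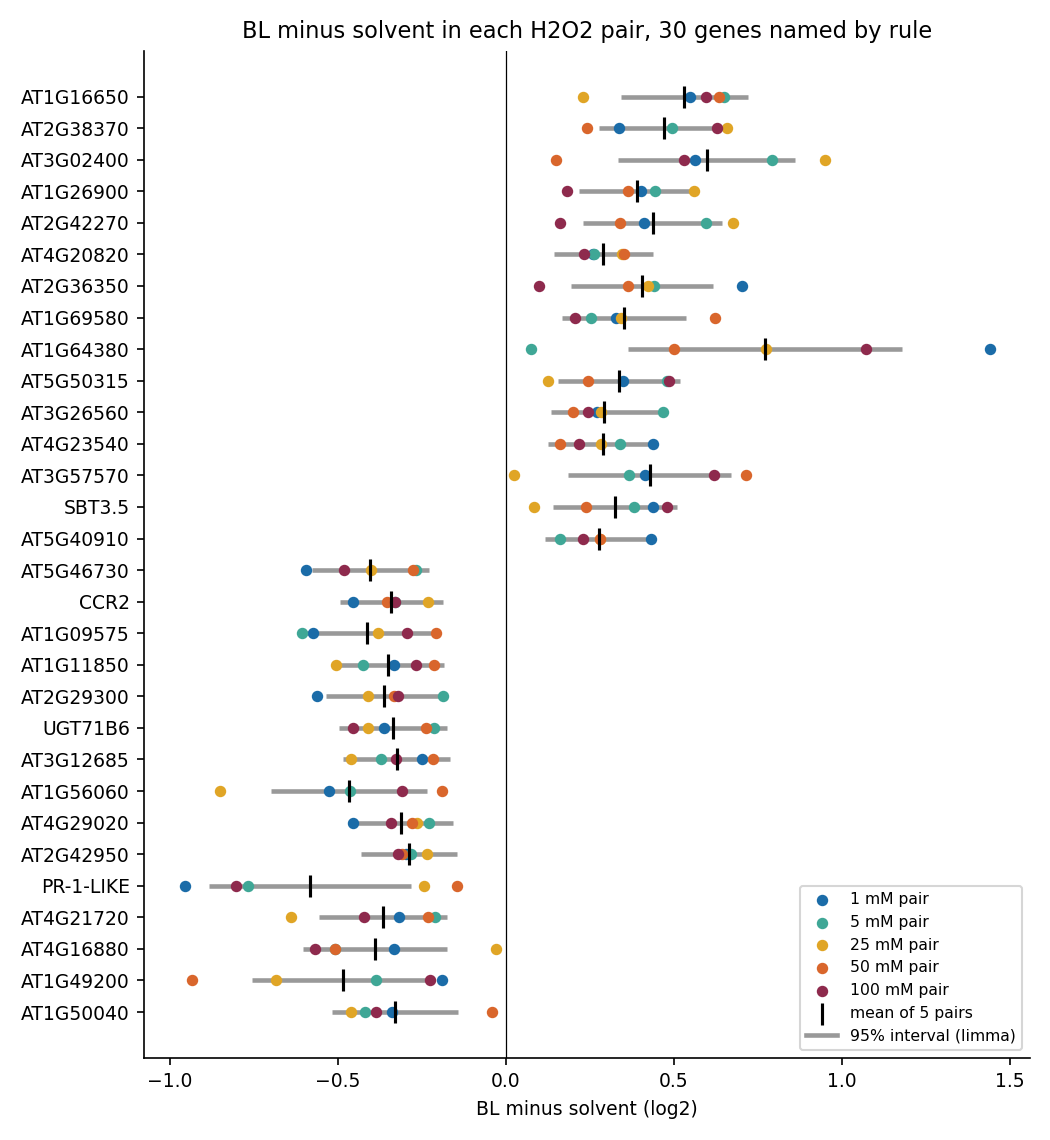
BL minus solvent (horizontal axis, log2) in each of the 5 H2O2 pairs (coloured points) for the 30 genes named by rule, 1 row a gene, with the mean (black tick) and its 95% limma interval (grey bar). The rule asked for 5 differences of one sign, so that no row crosses 0 was fixed by the choice, and no gene passed the adjusted threshold.

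The genes closest to brassinosteroid action could be read only in part, since the annotation names few of them. Of 284 genes in the lists, 58 had a probe set of their own and 44 passed the filter on dim values. None of the 10 genes of brassinosteroid synthesis was among them, nor any of the signalling genes, and what these genes did is not analysed here. Of 17 genes listed as raised by brassinosteroid, EXO and HAT2 were measured, and both read lower with BL on average. Neither was called.

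EXO encodes an extracellular protein of cell expansion that brassinosteroid is known to raise. It read 11.08, 11.94, 12.08, 12.19 and 11.25 on the BL arrays from 1 to 100 mM, against 11.53, 12.48, 12.37, 11.97 and 12.28 on the solvent arrays. The BL array was the lower one in every pair except that at 50 mM, where it was higher by 0.21, and the groups overlap. The mean difference was -0.42 (-0.78 to -0.06). HAT2, a homeodomain transcription factor gene, read 8.91, 10.30, 10.27, 10.24 and 10.44 with BL and 9.25, 10.32, 10.51, 10.69 and 10.45 with solvent. All 5 differences were below 0 but those at 5 and 100 mM were -0.02 and -0.01, and the mean was -0.21 (-0.41 to -0.01). At 0 mM the BL difference was 0.73 (-0.79 to 2.24, 3 arrays each) for EXO and 0.23 (-0.10 to 0.55) for HAT2. The EXO value rests on 1 array, since BL read 11.33, 11.26 and 11.46 and solvent 11.15, 11.58 and 9.14, and without solvent replicate 3, an alternative added after the data were seen, the difference was -0.01.

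Genes of cell wall loosening, which hormone-driven growth draws on, mostly had differences below 0. Of 6 measured, 5 had a mean difference below 0 and 1 above, with a median of -0.14 against -0.0021 over all probe sets. No share over all probe sets is given for that count, so nothing is read from it. The XTH genes are of 1 family, so these are not 6 separate readings. By pair the median was -0.19, -0.06, -0.34, 0.04 and -0.45 from 1 to 100 mM. Of all probe sets, 49.8%, 57.0%, 44.6%, 47.2% and 42.8% were above 0 in these pairs. None of the 6 genes was called, and 1 had an unadjusted p under 0.05, against 3.25% of all probe sets in that direction. XTH16, a xyloglucan endotransglucosylase gene whose product cuts and rejoins wall polymers, read 7.57, 7.72, 7.62, 7.81 and 6.82 with BL and 7.80, 8.07, 7.89, 7.89 and 7.43 with solvent. The BL array lay below its partner in all 5 pairs, and the mean difference was -0.31 (-0.51 to -0.11). XTH33 had a mean difference of -0.24 (-0.51 to 0.03), XTH19 of -0.13 (-0.58 to 0.31), XTH18 of -0.09 (-0.30 to 0.12) and XTH32, from the family list, of -0.15 (-0.33 to 0.03). The expansin genes EXPA4 and EXPA16, whose products loosen walls, had -0.15 (-0.40 to 0.11) and 0.03 (-0.24 to 0.31). Apart from XTH16 these intervals include 0, and all of them exclude a 1.5-fold change in either direction.

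**Figure D3:**
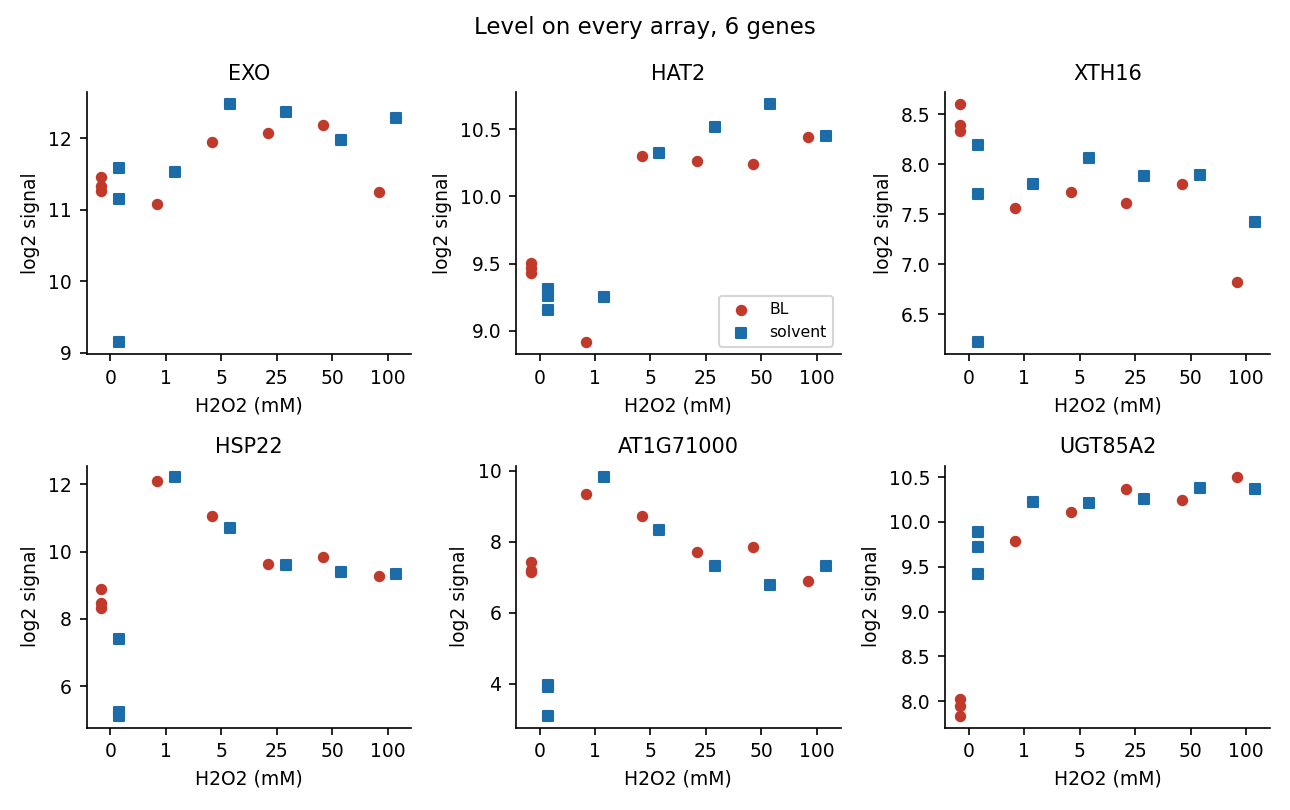
Log2 signal (vertical axis) on all 16 arrays for EXO, HAT2, XTH16, HSP22, AT1G71000 and UGT85A2 by H2O2 dose (horizontal axis), with BL as red circles and solvent as blue squares, 3 arrays of each at 0 mM and 1 of each above. Above 0 mM the BL and solvent points of AT1G71000 and UGT85A2 overlap in range, and at 0 mM they stand apart, as do those of HAT2, XTH16 and HSP22 by smaller gaps, while those of EXO overlap. AT1G71000 and UGT85A2 were called on these arrays, so their separation at 0 mM follows largely from that choice.

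Heat shock genes, which encode chaperones that hold unfolding proteins, differed little between BL and solvent under H2O2. All 6 measured members had a mean difference above 0, with a median of 0.16, a lowest of 0.06 and a highest of 0.25. They mostly shared a direction within a pair, so they are not 6 separate readings, and that direction differed between doses. Their median difference was -0.13, 0.43, 0.28, 0.45 and -0.20 from 1 to 100 mM. Of all probe sets, 49.8%, 57.0%, 44.6%, 47.2% and 42.8% were above 0 in these pairs. None was called, none had an unadjusted p under 0.05 and none was above 0 in all 5 pairs. HSP22 read 12.09, 11.07, 9.64, 9.83 and 9.27 with BL and 12.21, 10.70, 9.59, 9.38 and 9.33 with solvent, a mean difference of 0.14 (-0.09 to 0.37). HSP26.5 had the highest mean, 0.25 (-0.03 to 0.53), and HSP17.6C, HSP23.5, HSP15.7 and FES1A had 0.18, 0.11, 0.06 and 0.18. All 6 intervals lie within a 1.5-fold change.

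At 0 mM the same genes had BL differences between 0.94 for FES1A and 2.66 for HSP22, which read 8.33, 8.90 and 8.48 with BL and 5.11, 5.22 and 7.40 with solvent. One solvent array, replicate 3, thus lay nearer to the BL arrays. Without it, an omission chosen after the values were seen, the 6 differences at 0 mM ran from 1.31 for FES1A to 3.41 for HSP22. Leaving out the highest solvent array can only raise a difference. Without solvent replicate 1 the 6 differences ran from 0.89 for HSP23.5 to 2.26 for HSP22. Without solvent replicate 2 they ran from 0.62 for FES1A to 2.31 for HSP22. The difference of both responses, H2O2 minus 0 mM, was -2.52 for HSP22 (-3.90 to -1.14, limma adjusted p = 0.263), -1.99 for HSP26.5 (-3.34 to -0.64, adjusted p = 0.263) and -1.72 for HSP15.7 (-2.96 to -0.48, adjusted p = 0.268). For HSP17.6C, HSP23.5 and FES1A its interval included 0. None of the 6 differences was called.

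Other stress genes gave small or scattered differences. Of the 3 measured stress transcription factor genes, ZAT10 had a mean of -0.22 (-0.47 to 0.04), WRKY6 of 0.14 (-0.22 to 0.50) and WRKY53 of 0.29 (-0.45 to 1.03). The WRKY53 mean rests on the 100 mM pair, where BL read 7.91 and solvent 5.91, while its other 4 differences lay between -0.60 and 0.08. In detoxification, the glutathione S-transferase gene GSTU25 had 0.14 (-0.04 to 0.31), the mitochondrial stress gene UPOX 0.11 (-0.11 to 0.33), and the glucosyltransferase genes UGT73B4 and UGT73B5 had -0.38 (-0.69 to -0.07) and -0.09 (-0.36 to 0.18). Of the antioxidant enzymes, the stromal ascorbate peroxidase gene SAPX had 0.30 (0.05 to 0.56), with pair differences of 0.52, 0.52, -0.06, 0.03 and 0.49, the thylakoid peroxidase gene TAPX 0.05 (-0.13 to 0.24) and the glutathione reductase gene GR1 0.05 (-0.13 to 0.23). None of these 10 genes was called.

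**Figure D4:**
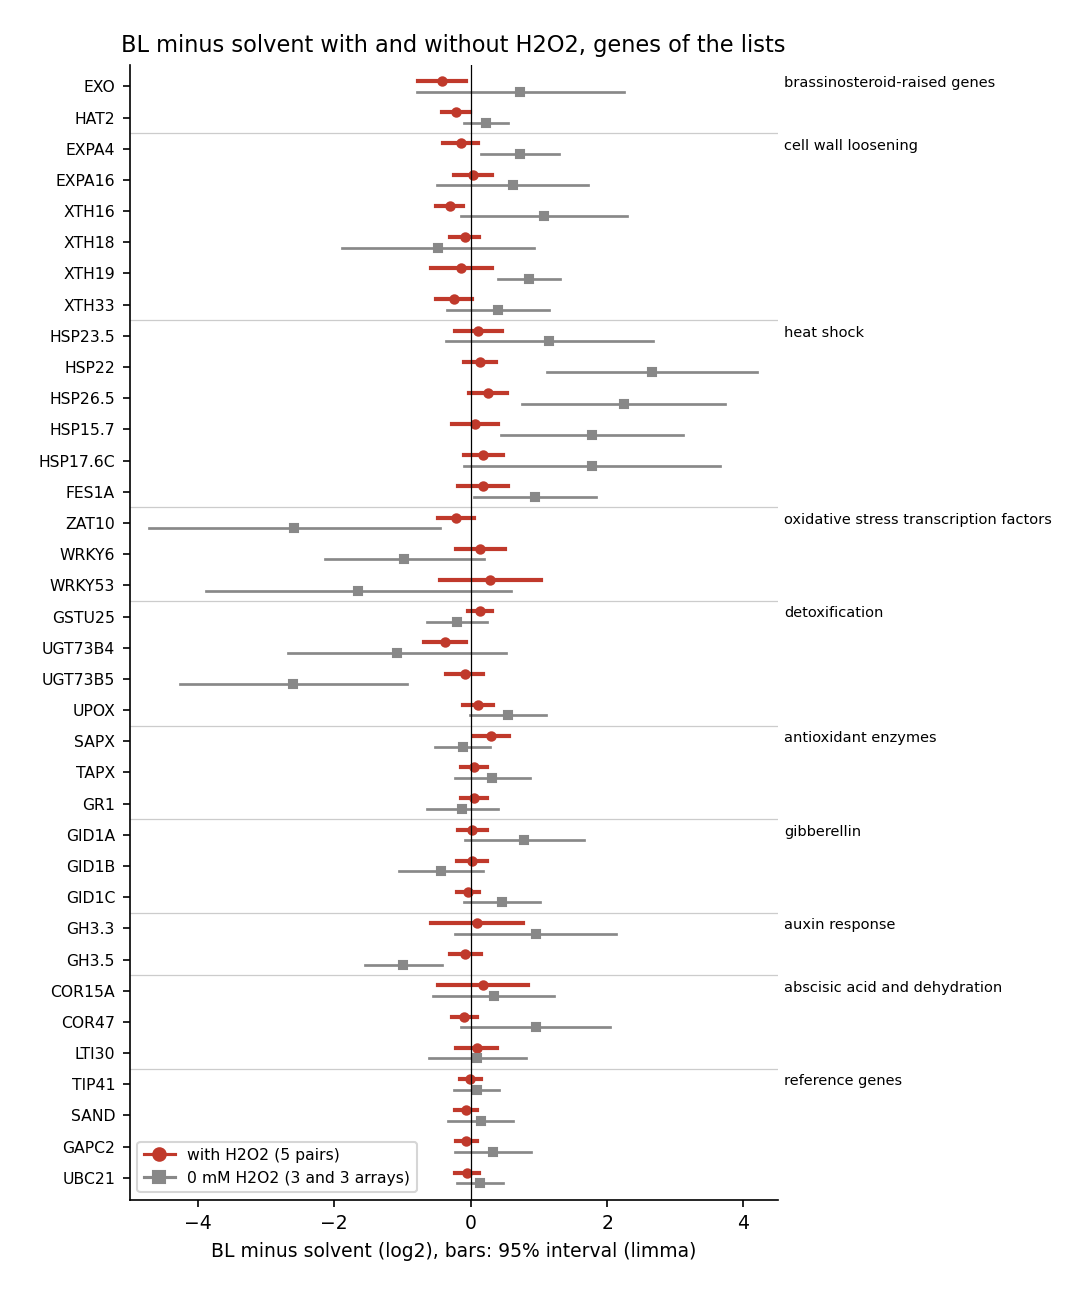
Mean BL minus solvent with its 95% limma interval (horizontal axis, log2) for measured genes of 10 lists, with H2O2 (red, 5 pairs) above 0 mM (grey, 3 and 3 arrays). The red bars are mostly short and close to 0, with longer ones for WRKY53, COR15A and GH3.3. The grey bars are wider. Those of several heat shock genes, XTH19 and EXPA4 lie to the right of 0. Those of ZAT10, UGT73B5 and GH3.5 lie to the left.

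Genes of other hormones showed no called change either. The gibberellin receptor genes GID1A, GID1B and GID1C had mean differences of 0.02 (-0.19 to 0.23), 0.02 (-0.20 to 0.24) and -0.04 (-0.20 to 0.12). GH3.5, an auxin-conjugating enzyme gene, had -0.08 (-0.31 to 0.16) under H2O2 and -0.99 (-1.55 to -0.43) at 0 mM, and GH3.3 had 0.09 (-0.58 to 0.77) with pair differences between -0.85 and 0.99. The ethylene transcription factor gene EIN3 had -0.05 (-0.25 to 0.14). The dehydration genes LTI30, COR47 and COR15A had 0.09, -0.09 and 0.19, and their intervals included 0. The 4 reference genes, TIP41, SAND, GAPC2 and UBC21, had mean differences between -0.07 and -0.01.

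Among gene families, the UDP-glycosyltransferases, which attach sugars to hormones and other small molecules, had 27 measured members. Of these 8 had a mean difference above 0 and 19 below, with a median of -0.04 against -0.0021 over all probe sets, and 0 were called. No share over all probe sets is given for these signs, so nothing is read from their count. An unadjusted p under 0.05 was reached by 2 higher and 4 lower members, against 2.79% and 3.25% of all probe sets. The lower ones were UGT71B6, UGT85A5 with -0.29 (-0.46 to -0.12), UGT78D1 with -0.31 (-0.59 to -0.04) and UGT73B4. The higher ones were UGT76B1 with 0.28 (0.02 to 0.54) and UGT87A2 with 0.25 (0.01 to 0.49). The 7 glutathione S-transferases, 11 cytochromes P450 and 5 WRKY factors had medians of 0.04, 0.04 and 0.08, with 0 members called and 0 at an unadjusted p under 0.05.

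The 5 pairs differed from one another more than they shared. The correlation of the BL differences between any 2 doses, across probe sets, lay between -0.22 for 5 and 50 mM and 0.26 for 1 and 5 mM, which share no array. The standard deviation of the differences over probe sets was 0.26, 0.28, 0.25, 0.21 and 0.33 from the lowest to the highest dose, and 56, 71, 71, 21 and 186 probe sets differed at least 2-fold within a pair. With 1 array a side, a difference within a single pair has no replicate check.

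Plastid-encoded genes, which the chloroplast transcribes itself, mostly shared a direction within a pair, and that direction differed between doses. All 69 passed the filter. With BL the median difference was -0.21 at 1 mM and -0.39 at 5 mM, where 56 and 64 of the 69 were below 0, and 0.44, 0.17 and 0.13 at 25, 50 and 100 mM, where 57, 57 and 50 were above 0. Of all probe sets, 49.8%, 57.0%, 44.6%, 47.2% and 42.8% were above 0 in these pairs. Over the 5 pairs the median of the plastid-encoded genes was 0.01, with 38 above 0, 31 below and 0 called. An unadjusted p under 0.05 was reached only by rpl20, a ribosomal protein gene, with 0.33 (0.07 to 0.59), and atpB, of the ATP synthase, was the one gene of the 69 with 1 sign in all pairs, below 0 with a mean of -0.14. The polymerase gene rpoB differed by -0.62, -0.17, 1.62, 0.33 and 0.00 in the 5 pairs. A sign of how far RNA was copied towards its 5' end, the mean 3' minus 5' difference of 6 control probe set pairs, was 1.51, 1.57, 1.80, 1.73 and 2.03 with BL and 1.55, 1.53, 1.70, 1.74 and 1.88 with solvent. The BL minus solvent values of that sign were -0.04, 0.04, 0.09, -0.01 and 0.15, and their part in the plastid values was not tested.

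**Figure D5:**
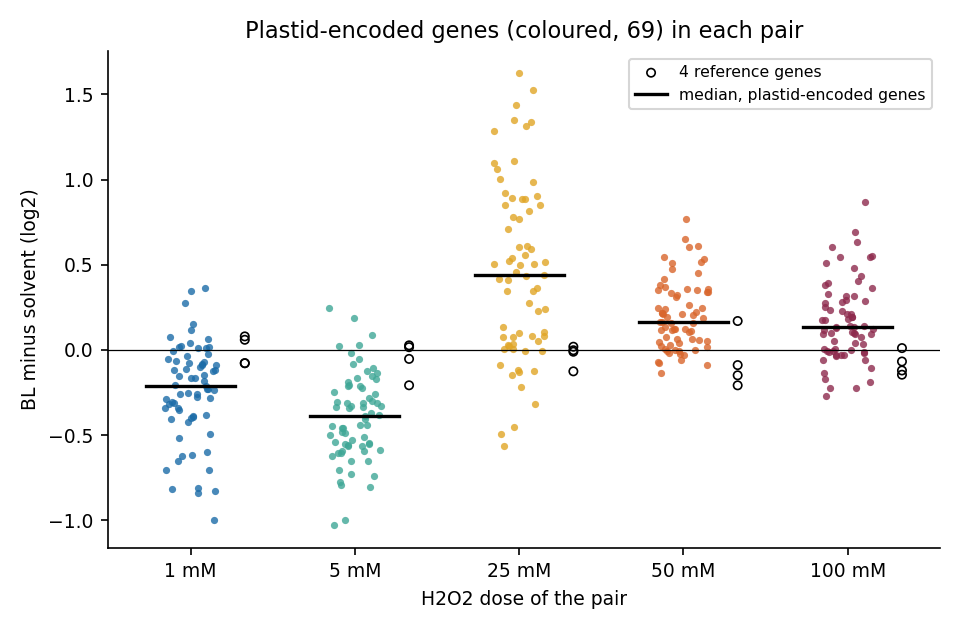
BL minus solvent (vertical axis, log2) in each H2O2 pair (horizontal axis, dose) for 69 plastid-encoded genes (coloured points, median as a black line) and 4 reference genes (open circles). The medians are -0.21 and -0.39 at 1 and 5 mM and 0.44, 0.17 and 0.13 at 25, 50 and 100 mM, and the single reference genes lie between -0.21 and 0.17.

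No gene was seen to change its BL response with H2O2 dose. The slope of the BL difference over log2(1 + dose in mM) was called for 0 of 12732 probe sets (0% called, lowest limma adjusted p = 0.917), with 667 (5.24%) at an unadjusted p under 0.05, of which 263 (2.07%) had a rising and 404 (3.17%) a falling slope estimate. Expressed as the change from 1 to 100 mM, the slopes ran from -2.44 to 2.19, with the central 95% between -0.65 and 0.64. The 95% interval of that change had a median half-width of 0.55, so a change of the BL difference by 2-fold over the dose range would lie outside the interval of a typical probe set but not of a scattered one. By that measure 127 probe sets had an estimated change of at least 2-fold.

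The BL response under H2O2 was also set against that at 0 mM in a fit to all 16 arrays. Of 12732 probe sets, 2 were called (0.0157%), and 2033 (16.0%) had an unadjusted p under 0.05, 892 (7.01%) with a more positive and 1141 (8.96%) with a more negative response under H2O2. AT1G71000, a gene for a DnaJ-type chaperone partner, read 9.35, 8.73, 7.73, 7.85 and 6.91 with BL and 9.82, 8.32, 7.32, 6.79 and 7.32 with solvent under H2O2. At 0 mM it read 7.22, 7.14 and 7.43 with BL and 3.90, 3.95 and 3.09 with solvent. The groups overlap under H2O2 and are far apart at 0 mM. The gene was called on these same arrays, so that contrast follows largely from the choice and is no added support. The BL difference was 0.20 (-0.29 to 0.69) under H2O2 in the paired fit. At 0 mM it was 3.62 (2.96 to 4.27) in a fit to those 6 arrays alone. The difference of the responses was -3.42 (-4.27 to -2.56, limma adjusted p = 0.0250) in the fit to all 16 arrays.

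UGT85A2, a UDP-glycosyltransferase gene, read 9.79, 10.11, 10.37, 10.25 and 10.50 with BL and 10.22, 10.21, 10.25, 10.38 and 10.37 with solvent under H2O2. At 0 mM it read 8.02, 7.84 and 7.95 with BL and 9.72, 9.42 and 9.89 with solvent, with no overlap. UGT85A2 too was called on these same arrays, so this separation follows largely from the choice and is no added support. The BL difference was -0.08 (-0.30 to 0.14) under H2O2 and -1.74 (-2.16 to -1.32) at 0 mM, and the difference of the responses was 1.66 (1.24 to 2.08, adjusted p = 0.0250). The median residual standard deviation was 0.14 on the H2O2 arrays and 0.30 at 0 mM, and this fit gives both 1 spread. With weights for the 2 spreads, added after the data were seen, 0 probe sets were called and both genes had an adjusted p of 0.265. Leaving out 1 pair or 1 array at 0 mM in turn ended the call of UGT85A2 in 9 of 11 settings and that of AT1G71000 in 8 of 11, and the count of calls ran from 0 to 1636, the highest without solvent replicate 2 at 0 mM. With a replicate block at 0 mM it was 0.

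The probe sets called for BL at 0 mM in the fit to all 16 arrays were then read in the H2O2 pairs. A fit to the 6 arrays at 0 mM alone called 0 probe sets, with 1157 (9.09%) at an unadjusted p under 0.05, 666 higher (5.23%) and 491 lower (3.86%) with BL. The fit to all 16 arrays called 60 for BL at 0 mM (0.471%), 29 higher and 31 lower, with 3100 (24.3%) at an unadjusted p under 0.05, 1759 higher (13.8%) and 1341 lower (10.5%). The 60 were chosen by their 0 mM values, and by a spread that the H2O2 arrays helped to set. Their median size at 0 mM was 1.11. In the H2O2 pairs, taken in the 0 mM direction, their median difference was 0.05, and 40 of the 60 had the 0 mM sign. No share over all probe sets is given for that count, so nothing is read from it. All 5 pairs had that sign for 2 of them and the opposite sign for 4, against 7.31% of all probe sets with 1 sign in all pairs. For 51 of the 60 the 95% interval under H2O2 lay within a 1.5-fold change, and for 58 within a 2-fold change. Of all probe sets, 95.1% and 99.6% had such intervals. SPT, EFR and UGT85A5 were picked from the 60 after their values were seen. SPT, a growth-related transcription factor gene, had 0.85 at 0 mM and -0.13 (-0.30 to 0.03) under H2O2, and EFR, the gene of an immune receptor kinase, had -1.93 and 0.18 (-0.05 to 0.40). UGT85A5 was the gene with a symbol that kept its 0 mM sign in all 5 pairs, with -0.78 at 0 mM and -0.29 (-0.46 to -0.12) under H2O2.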

How the data were processed

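Each array gives 1 log2 signal per probe set. The authors deposited log2 values. The submitters' processing notes name GCRMA, without a version, and no build. That the scale is log2 was inferred from the range of the values. Arrays have no read depth, and their number limits the precision.

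Of 22810 entries, 64 control probe sets were left out, and the 12732 with a value of at least 5 on at least 2 of the 10 H2O2 arrays were kept. Of these 6807 have 1 gene in the platform annotation, 286 several and 5639 none. Symbols came from RefSeq (TAIR10.1, names only), which matched 13436 of 13513 annotated probe sets. The brightest probe set stands for a gene.

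Tests used limma 3.58.1 in R 4.3.3 with Benjamini-Hochberg adjustment over all probe sets kept. The paired fit had dose as a factor and BL (4 residual degrees of freedom), the slope fit 3 and the fit to all 16 arrays 8. Intervals are limma's moderated 95% intervals. An exact sign permutation of 5 pairs cannot give a two-sided p under 0.0625. The fits were tested on simulated data. Named are the 15 largest called genes in each direction with 5 differences of that sign, the places left filled by lowest p, called genes of the other fits, and list members. Members and lists were chosen with earlier results of these data known. No label speaks of separate cultures, so the p-values measure only the spread between these arrays, which may be technical.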

Additional observations from a re-analysis of the deposited data

Results flagged for a closer look

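AT1G16650 had BL differences of 0.55, 0.65, 0.63 and 0.59 in the pairs at 1, 5, 50 and 100 mM and of 0.23 at 25 mM, which lies far from the other 4. It was the only one of the 30 genes with such a gap, and chance gives such a gap in about 5% of sets. AT1G71000 and UGT85A2 differed between H2O2 and 0 mM in their BL response, by -3.42 and 1.66, in the test of the difference itself (limma adjusted p = 0.0250 for each). Both calls were lost with weights for the 2 spreads (adjusted p = 0.265). Leaving out single pairs or arrays ended the call in 8 of 11 settings for AT1G71000 and in 9 of 11 for UGT85A2.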

How the results depend on the processing

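The paired comparison and the slope over dose called 0 probe sets under each alternative run, which were filters, normalizations, variance models, leaving out any pair and, for the first, other ways to treat dose. For the 30 genes named, all 435 alternative values kept their direction, and none was called (lowest adjusted p = 0.161). Of 84 alternative list medians, 1 moved by more than the spread between pairs. The difference between H2O2 and 0 mM was less steady. Its 2 calls became 13 with no filter on dim probe sets, 0 with weights for the 2 spreads (added after the data were seen) and 0 with a replicate block at 0 mM. Leaving out single arrays or pairs gave 0 to 1636 calls. The count was 0 without the pair at 1, 5, 25 or 100 mM, without solvent replicate 1 at 0 mM or without BL replicate 1, 2 or 3 at 0 mM. It was 1 without the 50 mM pair, 1636 without solvent replicate 2 and 95 without solvent replicate 3 at 0 mM. The causes were not tested. At 0 mM, deviations of BL and solvent arrays of the same number correlated at 0.17, 0.11 and -0.07, so the numbers are not taken to pair them. Above 0 mM the dose is the pair and no dose has a replicate.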

Other observations

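The genes with the most extreme differences within single pairs are given as values, with 1 array a side and therefore no test. They were chosen by size after the values were seen, out of the 6763 genes kept, each read by its brightest probe set. Probe sets that do not stand for a gene in this way differed more in some pairs. The largest such differences at 5, 25, 50 and 100 mM were 1.95, 2.39, -1.66 and 4.49. The probe set at 100 mM read 7.54 with BL and 3.05 with solvent. AMY1, an alpha-amylase gene, read 6.90 with BL and 4.51 with solvent at 100 mM, a difference of 2.39, and its differences at 1, 5, 25 and 50 mM were 1.11, -0.20, -0.90 and -0.40. The defensin gene PDF1.2 read 9.14 with BL and 6.83 with solvent at 25 mM, and differed by -1.27, 0.10, -0.92 and 0.72 at 1, 5, 50 and 100 mM. SWEET10, of a family of sugar transporters, read 4.03 with BL and 5.85 with solvent at 25 mM and was below its partner in the other 4 pairs too, with differences from -0.81 to -0.28. AT1G64560 differed by 1.87 at 5 mM and by -2.35 at 100 mM. At 100 mM it read 2.38 with BL, near the lowest value on the arrays of 2.12, and 4.73 with solvent.

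By mean difference over the 5 pairs, AT1G06830 was the lowest, with -0.94 (-1.63 to -0.25) and pair differences of -2.22, -0.67, -1.54, 0.04 and -0.32. At 1 mM it read 2.63 with BL, near the lowest value on the arrays, and 4.86 with solvent. The tubulin gene TUB1 had -0.53 (-0.91 to -0.14), the jasmonate-regulated gene JRG21 0.54 (-0.01 to 1.1) and the DNA demethylase gene DME 0.52 (-0.01 to 1.05). The peroxidase gene AT4G26010 had -0.71 (-1.32 to -0.09), and its BL array at 25 mM read 2.66, also near the lowest value. None was called.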
